A study of Bos taurus with 10 samples.

Results

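The 6 genes described here encode the main fibrillar collagens of joint tissue and a pair of proteins that bind them: COL1A1, COL1A2, COL3A1, COL2A1, SPARC and DCN (decorin). They were chosen by name as a set, with earlier results of these data known. They were found in the count files by their Ensembl numbers, 6 of the 23819 genes listed. The numbers are ENSBTAG00000013103 for COL1A1, ENSBTAG00000013472 for COL1A2, ENSBTAG00000021466 for COL3A1, ENSBTAG00000013155 for COL2A1, ENSBTAG00000014835 for SPARC and ENSBTAG00000003505 for DCN. This pairing of numbers with symbols came with the gene set, because the files hold numbers alone. No source used here names the genome build or annotation behind the counts, so no positions are stated. Read counts came from 5 libraries of bovine articular cartilage and 5 of bovine acetabular labrum, the ring of fibrocartilage around the hip socket. Donors were male cattle (Bos taurus) without visible disease, and both tissues spent 2 days in DMEM/F12 medium with antibiotics and insulin, transferrin and selenium before RNA was taken. Age, breed and the joint that gave the articular cartilage are not stated in the labels. The labels number the libraries 1 to 5 in each tissue but do not state whether each is from its own animal. The p-values therefore reflect variation among the libraries at hand, some of which may be technical.

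Fibrillar collagens are the rope-like proteins that give connective tissue its tensile strength. Each molecule is a triple helix that is secreted as a procollagen, trimmed by proteases and assembled into cross-linked fibrils. Type I collagen is built from the COL1A1 and COL1A2 chains and dominates tendon, ligament, bone and the outer parts of fibrocartilage. Type II collagen, built from COL2A1 chains, is the principal collagen of hyaline cartilage and is widely used to mark chondrocytes. Type III collagen, built from COL3A1 chains, forms thin fibrils alongside type I in stretchable tissues. SPARC (osteonectin) is a secreted, calcium-binding protein that binds collagen, and decorin is a small leucine-rich proteoglycan that decorates fibrils and limits their growth in width. The comparison asked how labrum and articular cartilage differ in their baseline RNA.

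Cartilage libraries held 7910479 to 27043808 counts and labrum libraries 3958167 to 19179862. Levels are given in CPM, the usual scaling of counts to library size, here with TMM factors, which are set from genes that differ little. CPM is not divided by transcript length, so a level in CPM compares libraries for 1 gene and does not rank genes. All 6 genes passed the filter on low counts, COL1A1 and COL1A2 only through their labrum counts. Tissues were compared with edgeR's quasi-likelihood test over 12333 genes with Benjamini-Hochberg adjustment, and a gene was called at an adjusted p under 0.05. Bulk RNA cannot tell fewer cells of a type from less RNA per cell, and this holds for every difference below.

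Type I and type III collagen transcripts were higher in labrum, and type II collagen transcripts were lower. By the test 3 of the 6 genes were higher in labrum, where 31.4% of all tested genes were, and 1 was lower, where 31.3% of all tested genes were. Together 4 of 6 passed, against 62.7% of all tested genes, so the count is near the background and the sizes of the differences carry the description. The median absolute log2 fold change was 4.46 over the 6 genes and 0.57 over all tested genes. The 6 genes were chosen with earlier results known, so this gap is a description and no test of the set. Their absolute values ran from 0.11 for DCN and 0.91 for SPARC to 16.4 for COL1A1, which rests on few cartilage counts. Directions are relative to TMM scaling. TMM gave 3877 higher and 3861 lower genes, whereas library totals alone gave 5154 higher and 2588 lower ones and shifted the median log2 fold change over all genes to 0.25. In 3 of the 6 genes the libraries of the tissues did not overlap, against 48.2% of all tested genes. Of these, 2 lay higher in labrum, where 24.7% of all tested genes did, and 1 lay lower, where 23.5% did. The 2 higher ones were COL1A1 and COL1A2. Because both passed the filter only through labrum, their calls and lack of overlap are a description and no separate support.

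**Figure D1:**
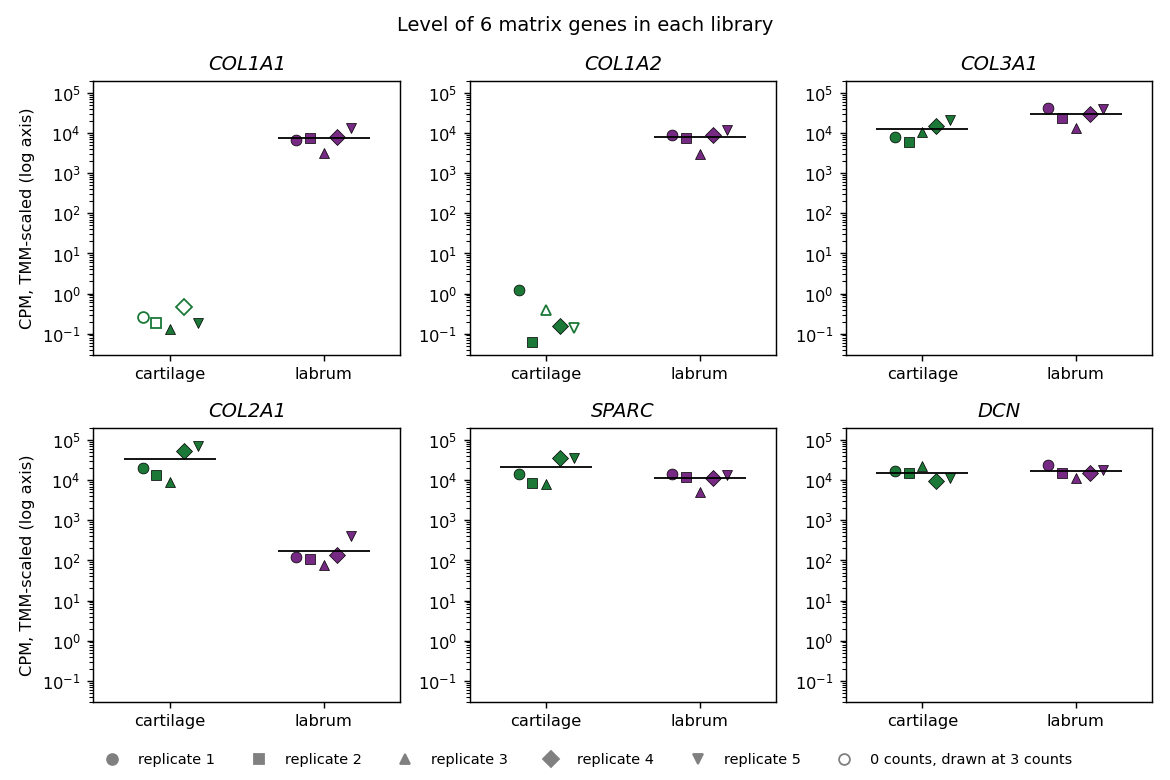
Level of each gene in each library, in TMM-scaled CPM on a log axis, with cartilage in green and labrum in purple; symbols mark the replicate number, lines mark the mean of 5 libraries, and open symbols are libraries with 0 counts, drawn at the level of 3 counts. COL1A1 and COL1A2 lie between 2999 and 13207 CPM in labrum and at or below 1.24 CPM in cartilage, COL2A1 is separated the other way, and the tissues overlap for COL3A1, SPARC and DCN.

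The type I collagen transcripts were abundant in labrum and nearly absent from cartilage. COL1A1, which encodes the alpha-1 chain, was measured in labrum replicates 1 to 5 at 6820, 7411, 3169, 7984 and 13207 CPM. In the cartilage libraries it had 0, 0, 1, 0 and 4 counts in the same order of numbers. COL1A2, which encodes the alpha-2 chain, was measured in labrum at 8989, 7668, 2999, 8859 and 11826 CPM. In cartilage it had 14, 1, 0, 1 and 0 counts. Both genes were thus lowest in labrum replicate 3 and highest in labrum replicate 5, and no cartilage library came near any labrum library. A count of 0 in 1 cartilage library allows up to 3 counts, which is between 0.136 and 0.454 CPM depending on its depth.

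Pooled over libraries, COL1A2 had 509484 counts in labrum and 16 in cartilage. Divided by the TMM-scaled totals, these gave a pooled labrum to cartilage ratio of 34800. Its exact 95% binomial interval of 21500 to 61000 covers counting error only. The edgeR fit, which takes in variation between libraries, gave 29500-fold with a 95% interval of 8220 to 106000 (edgeR adjusted p = 6.31e-08, n = 5 per tissue). Of the 16 counts, 14 lay in cartilage replicate 1, and without that library the pooled ratio was 228000. The edgeR fit then gave 164000-fold, above the 95% interval found with all libraries, so that interval does not cover the effect of this library. Without cartilage replicate 5, the deepest, the pooled ratio was 22700. COL1A1 had 486152 counts in labrum and 5 in cartilage, a pooled ratio of 106000 with a binomial interval of 45600 to 328000. For this gene the edgeR fit gave 87900-fold with a 95% interval of 32400 to 239000 (edgeR adjusted p = 4.55e-09). The pooled ratio was 346000 without cartilage replicate 5, which held 4 of the 5 counts.

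Among the 372 tested genes with at most 16 pooled cartilage counts, COL1A2 and COL1A1 had the most reads in labrum. The next gene of that group averaged 335 CPM in labrum, and the median of the group was 5.69 CPM. This limit of 16 counts was set at the count of COL1A2 after its value was seen. Genes with so few cartilage counts passed the filter on low counts only because of their labrum counts. The group is thus selected on labrum, and its order and median are a description, not a neutral background. Collagen genes resemble each other, and no source used here says how reads that fit several genes were counted. The cartilage libraries held 2473839 COL2A1 counts and 850361 COL3A1 counts beside 5 COL1A1 counts, and the part of shared reads was not tested.

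COL3A1, the single chain of type III collagen, was high in both tissues and higher in labrum. Labrum replicates 1 to 5 were measured at 42175, 24458, 13118, 30418 and 41123 CPM. Cartilage replicates 1 to 5 were measured at 8233, 5894, 10846, 15285 and 21788 CPM. The tissues overlapped, because labrum replicate 3 lay below cartilage replicates 4 and 5, while the other 4 labrum libraries lay above all cartilage libraries. The means were 30258 ± 12119 CPM in labrum and 12409 ± 6296 CPM in cartilage (SD, n = 5 each). COL3A1 was 2.44-fold higher in labrum, with a 95% interval of 1.36 to 4.39 (log2 fold change 1.29, SE 0.39, edgeR adjusted p = 0.0123). Its adjusted p stayed under the threshold under every other scaling, filter and tool tried and with each library left out in turn, where it ran from 0.00293 to 0.0307. In all 5 labrum libraries COL3A1 was the gene with the most reads, 3.25% ± 1.18 of all counts (SD, n = 5), against 1.1% ± 0.457 in cartilage.

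COL2A1, the chain of type II collagen, was high in every cartilage library and far lower, though present, in every labrum library. Cartilage replicates 1 to 5 were measured at 19886, 13391, 9166, 55088 and 72807 CPM. Labrum replicates 1 to 5 were measured at 122.4, 108.4, 76.01, 134.6 and 416.5 CPM. Cartilage replicates 4 and 5 stood above the other 3 cartilage libraries, and labrum replicate 5 stood above the other 4 labrum libraries. The lowest cartilage library was still 22-fold above the highest labrum library.

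The means of COL2A1 were 34068 ± 28246 CPM in cartilage and 171.6 ± 138.6 CPM in labrum (SD, n = 5 each). COL2A1 was 198-fold lower in labrum, with a 95% interval of 57.3 to 686 (log2 fold change -7.63, SE 0.82, edgeR adjusted p = 8.22e-06). It stood 31st from the lowest log2 fold change among 12333 genes. Without labrum replicate 5 the labrum mean was 110.3 ± 25.27 CPM (SD, n = 4) and the difference was 308-fold. The fewest COL2A1 counts in a labrum library were 354, in replicate 3, with a counting error of 5.31%. By COL2A1 and the type I chains, 0 of the 10 libraries went against its tissue label. That follows from the lack of overlap in these genes, which were chosen with earlier results known, so it is no separate check of the labels.

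**Figure D2:**
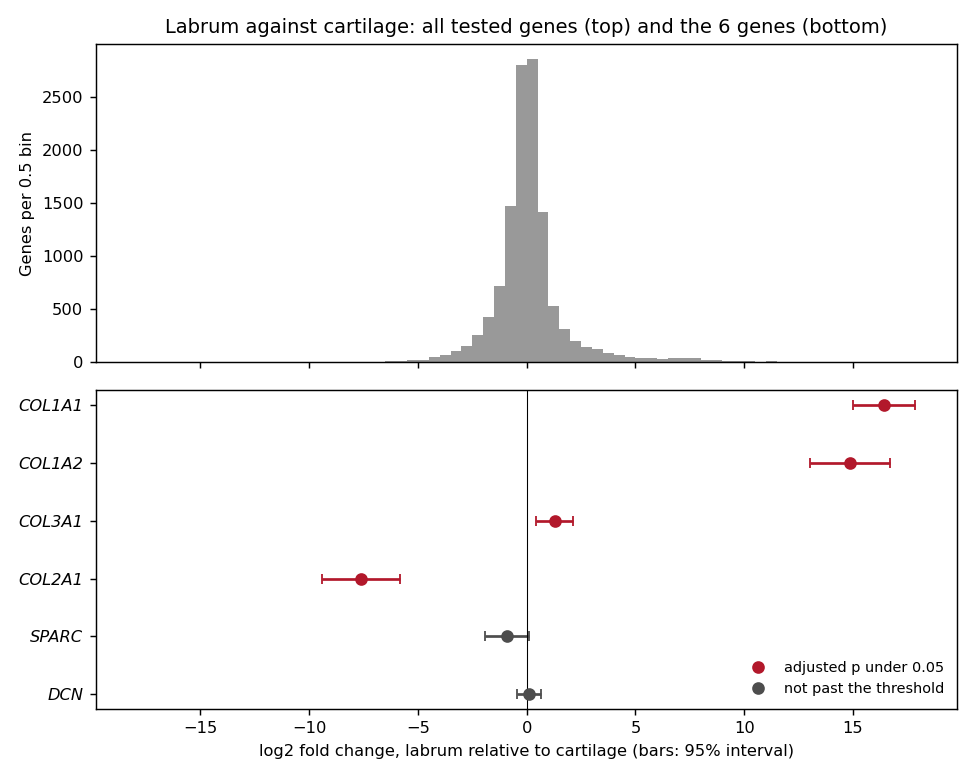
Log2 fold change of labrum relative to cartilage for all 12333 tested genes as a histogram (top, genes per bin) and for the 6 genes with 95% intervals (bottom), red where the adjusted p was under 0.05. COL1A1 and COL1A2 lie at the far right, where the fitted value depends on how counts near 0 are handled, COL2A1 lies at -7.63 and COL3A1 at 1.29, and the intervals of SPARC and DCN include 0.

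The make-up of fibrillar collagen reads differed between the tissues, while their total share overlapped. The 4 collagen genes together took 4.04% ± 2.62 of counts in cartilage and 4.97% ± 1.78 in labrum (SD, n = 5 each). The lowest and highest libraries were 1.92% and 7.7% in cartilage and 2.28% and 6.95% in labrum. Within those reads, which are not corrected for transcript length, COL2A1 took 68.2% ± 13.1 in cartilage and 0.357% ± 0.164 in labrum. COL3A1 took 31.8% ± 13.1 in cartilage and 65.6% ± 4.61 in labrum. COL1A1 and COL1A2 took 16.7% ± 3.11 and 17.4% ± 1.78 in labrum. Cartilage replicate 3 differed from the other cartilage libraries, with COL3A1 at 54.2% and COL2A1 at 45.8% of these reads, whereas COL2A1 took between 69.4% and 78.3% in the other 4. These shares were formed from genes chosen with their levels known and are given without a test.

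**Figure D3:**
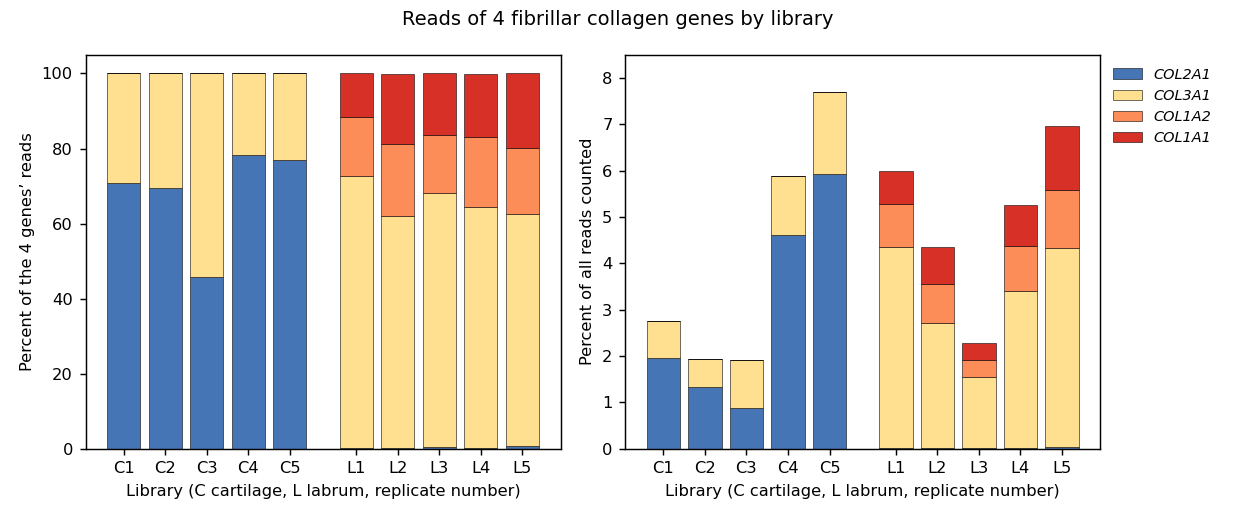
Reads of COL2A1, COL3A1, COL1A2 and COL1A1 in each library, as a percent of the reads of these 4 genes (left) and of all reads counted (right), for cartilage (C1 to C5) and labrum (L1 to L5). Cartilage bars hold COL2A1 and COL3A1, labrum bars hold COL3A1, COL1A2 and COL1A1, and the total height on the right is lowest at 1.92% (cartilage) and highest at 7.7% (cartilage).

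The level of SPARC, the collagen-binding glycoprotein, did not pass the test between the tissues. Cartilage replicates 1 to 5 were measured at 14143, 8808, 7961, 36934 and 36419 CPM. Labrum replicates 1 to 5 were measured at 13980, 11781, 5208, 11350 and 13270 CPM. Cartilage replicates 4 and 5 lay above all labrum libraries, and the other 3 cartilage libraries lay among or just above them. The fitted value was 0.533-fold in labrum relative to cartilage, with a 95% interval of 0.265 to 1.07 (log2 fold change -0.91, SE 0.46, edgeR adjusted p = 0.106). This outcome changed only when cartilage replicate 3, the lowest of its tissue, was left out. The edgeR adjusted p was then 0.0414 and the log2 fold change -1.12. With any other library left out SPARC did not pass, and the edgeR adjusted p was highest, at 0.274, without cartilage replicate 4.

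The level of DCN, which encodes decorin, did not pass the test either. Cartilage replicates 1 to 5 were measured at 17205, 15488, 23261, 9734 and 11279 CPM. Labrum replicates 1 to 5 were measured at 23498, 15024, 11447, 15505 and 17701 CPM. The ranges of the tissues nearly coincided, and cartilage replicates 4 and 5 were the lowest libraries of the 10. The fitted value was 1.08-fold in labrum relative to cartilage, with a 95% interval of 0.732 to 1.59 (log2 fold change 0.11, SE 0.26, edgeR adjusted p = 0.721). That interval leaves room for modest differences in either direction. The sign of the fitted value turned when cartilage replicate 4 or labrum replicate 1 was left out.

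**Figure D4:**
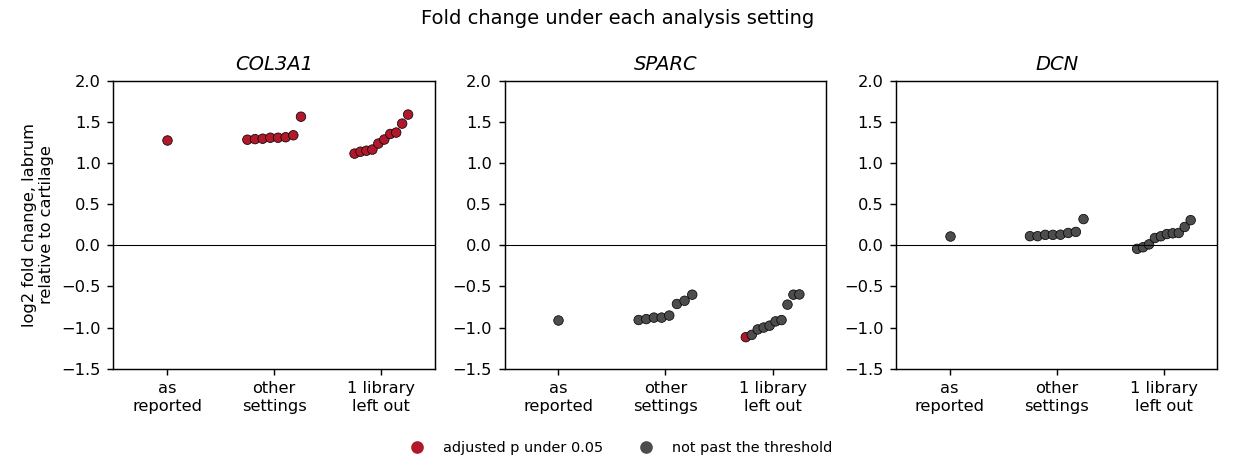
Log2 fold change of COL3A1, SPARC and DCN as reported, under 8 other scalings, filters, tools and models, and with each of the 10 libraries left out; red points have an adjusted p under 0.05. COL3A1 stays between 1.12 and 1.59, SPARC lies between -1.12 and -0.60 with 1 red point, and DCN lies between -0.04 and 0.32.

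Ratios of the genes within a library need no scaling between libraries, and their change between tissues needs no transcript length. In all, 8 ratios were compared by an exact permutation test (two-sided, 252 arrangements), with p-values adjusted over the 8. For 5 libraries against 5 the smallest p this test can give is 0.00794. If equal replicate numbers mark pairs, which the labels do not say, the exact paired test over 5 pairs cannot go below 0.0625, and the 6 ratios that passed had that value. COL3A1 counts relative to SPARC counts averaged -0.59 ± 0.63 on the log2 scale in cartilage and 1.41 ± 0.23 in labrum (SD, n = 5 each), without overlap (exact permutation p = 0.00794, adjusted p = 0.0106). Relative to SPARC, COL2A1 averaged 0.58 ± 0.29 in cartilage and -6.22 ± 0.75 in labrum, again without overlap (exact permutation p = 0.00794, adjusted p = 0.0106). These ratios to SPARC were added after the levels were seen. The ratio of DCN to COL2A1 rose by 7.61 on the log2 scale from cartilage to labrum (exact permutation p = 0.00794, adjusted p = 0.0106). This ratio and that of COL2A1 to SPARC separate the tissues largely through COL2A1, whose own levels did not overlap.

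The ratio of DCN to SPARC averaged -0.19 ± 1.54 on the log2 scale in cartilage and 0.62 ± 0.33 in labrum (SD, n = 5 each), and overlapped (exact permutation p = 0.333, adjusted p = 0.381). In cartilage DCN had 1.22, 1.76 and 2.92 times the counts of SPARC in replicates 1, 2 and 3. In replicates 4 and 5 it had 0.264 and 0.31 times. A further 3 of the ratios have COL1A2 as their base, and in each the tissues did not overlap (exact permutation p = 0.00794, adjusted p = 0.0106). That separation followed from the near absence of COL1A2 in cartilage, so it adds nothing to the levels above. These 3 ratios also make the adjustment over all ratios milder. Their computed sizes are not read as changes, because COL1A2 had between 0 and 14 counts in the cartilage libraries and the sizes move with the count added. The last ratio, COL1A1 to COL1A2, did not pass (exact permutation p = 0.738, adjusted p = 0.738) and rests on the same few cartilage counts. In labrum it was 0.759, 0.966, 1.06, 0.901 and 1.12 in replicates 1 to 5. The near-equal read counts of the chains are not a chain ratio, since they are not divided by length.

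These genes varied more between libraries of 1 tissue than most genes did. In cartilage the coefficient of variation of CPM was 82.9% for COL2A1, 70.2% for SPARC, 50.7% for COL3A1 and 34.7% for DCN. The median over the 8622 genes of at least 10 CPM in cartilage was 14.7%, and these 4 genes lay between the 91.7th and the 99.5th percentile. Among the 143 genes of at least 1000 CPM, COL2A1 had the highest coefficient and DCN lay at the 75.5th percentile. In labrum the coefficients were 80.8% for COL2A1, 46.6% for COL1A1, 40.1% for COL3A1, 39.9% for COL1A2, 31.2% for SPARC and 26.7% for DCN, against a median of 12.6% over 8680 genes.

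Single libraries set much of that spread in labrum. Labrum replicate 3 was the lowest labrum library for 6 of the 6 genes, as it was for 23.4% of all tested genes, and it was also the shallowest library of all. The part of depth in this was not tested. Without it the coefficient was 9.82% for SPARC, 18.9% for COL1A2, 24.8% for COL3A1 and 33.2% for COL1A1. Without labrum replicate 5 it was 22.9% for COL2A1, and without labrum replicate 1 it was 17.4% for DCN. For each gene the library named is the one whose removal gave the lowest coefficient, so a fall was certain. In cartilage, replicates 4 and 5 were the highest pair for COL2A1, SPARC and COL3A1, as they were for 18.1% of all tested genes, and the lowest pair for DCN. They were the shallowest and the deepest cartilage libraries. Their TMM factors, 0.837 and 0.814, were the lowest of the 10. By library totals alone COL2A1 still took 4.61% and 5.92% of their counts, against 0.88% to 1.95% in the other 3 cartilage libraries.

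**Figure D5:**
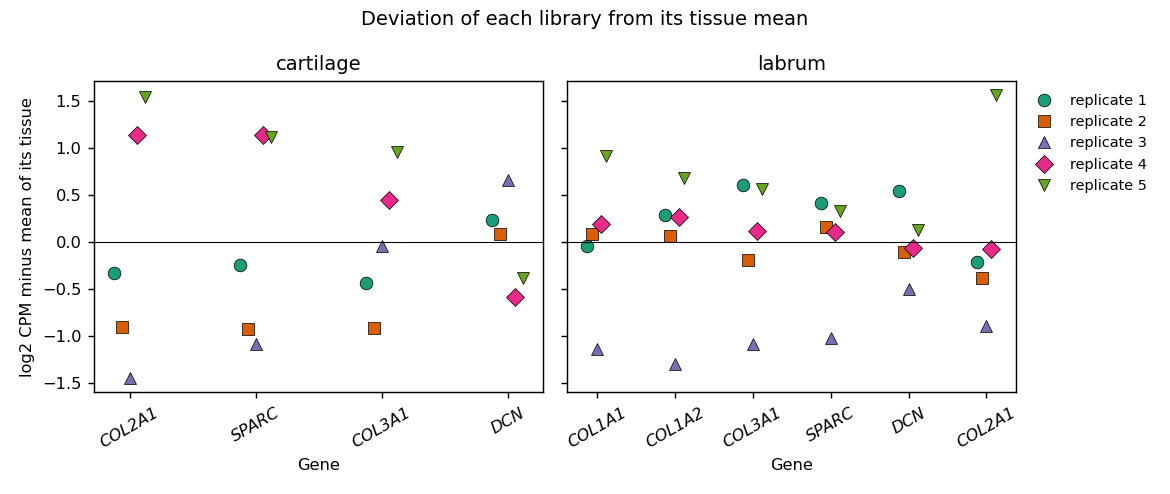
Deviation of each library from the mean of its tissue in log2 CPM, for the 4 genes abundant in cartilage (left) and all 6 genes in labrum (right); symbols and colours mark the replicate. In cartilage replicates 4 and 5 lie above 0 for COL2A1, SPARC and COL3A1 and below 0 for DCN, and in labrum replicate 3 is lowest for every gene shown.

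In cartilage the level of SPARC followed that of COL2A1 from library to library. Likeness of a pair was described by the SD of the log2 ratio of their counts over the 5 libraries, which is small where the genes keep a constant ratio. In cartilage the SD was 0.29 for COL2A1 and SPARC, whose ratio stayed between 1.15 and 2 while COL2A1 itself ranged 7.94-fold in CPM. By this measure SPARC was the 4th closest of 10966 genes to COL2A1, where the median gene had an SD of 1.31. With each cartilage library left out, its rank was between 2 and 13. DCN was among the least alike, with an SD of 1.76 and rank 10662. COL3A1 lay between, with an SD of 0.84 and rank 278. All of these are descriptions over 5 libraries, too few for a correlation, and genes of 1 library share its preparation and depth.

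In labrum COL1A1 and COL1A2 had an SD of 0.22, and COL1A2 was the 6th closest of 11191 genes to COL1A1. SPARC kept a nearly constant ratio to COL3A1 and to COL1A2 there, with SDs of 0.23 and 0.25 and ranks 25 and 13. The order of these close pairs was not stable, since without labrum replicate 2 the SD was 0.25 for COL1A1 and COL1A2 and 0.14 for COL3A1 and SPARC. The 2 ranks of SPARC rested on labrum replicate 3, the library where all of these genes were low. Without it the ranks were 1044 and 1696, while the SDs were 0.26 and 0.23. The rank of COL1A2 beside COL1A1 was 263 without it and the SD 0.23. Thus the ratios were as constant without labrum replicate 3, but many other genes then kept an even more constant ratio. Relative to SPARC, COL2A1 varied in labrum with an SD of 0.75, against 0.29 in cartilage, a difference that was not tested.

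Genes with the most similar profile over all 10 libraries were sought by the root mean square difference of log2 CPM, each gene centred on its own mean, among the 12327 other genes tested. For COL1A2 the closest was ENSBTAG00000000745, at a distance of 1.97, with 2410 ± 251.4 CPM in labrum and 1.365 ± 1.293 CPM in cartilage (SD, n = 5 each). The next was ENSBTAG00000004207, at 2.04, with 335 ± 61.14 CPM in labrum and 0 counts in cartilage. For COL2A1 the closest were ENSBTAG00000004948, at 0.73, with 38.89 ± 30.49 CPM in cartilage, and ENSBTAG00000025502, at 0.74, with 48.75 ± 35.57 CPM (SD, n = 5 each). Both had 0 counts in labrum, and their fitted log2 fold changes were -11.89 and -12.21, against -7.63 for COL2A1. Where a gene had 0 or few counts in 1 tissue, its distance depends on the prior count of 2. The smallest distance was 2.1 for COL1A1, 0.32 for COL3A1, 0.355 for SPARC and 0.141 for DCN. Among the 6 genes themselves the smallest distances were 0.943 between COL3A1 and DCN, and 1.08 both between COL3A1 and SPARC and between SPARC and DCN. COL1A1 and COL1A2 were 1.09 apart, and COL1A1 and COL2A1 were the farthest apart, at 11.3.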

How the data were processed

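Each deposited file gives the read count of every gene in 1 library, as whole numbers. Reads were aligned and counted with STAR and featureCounts, per the submitters' processing notes. The sources used here do not give versions, genome build, annotation, strand setting or the treatment of multiply matching reads. Libraries were grouped by tissue from the sample titles. Of 23819 genes, 12333 passed edgeR's default filter on low counts. Counts were scaled by TMM and fitted with edgeR 4.0.16 in R 4.3.3, with tissue as the only term and robust dispersions, and the code was tested on simulated data. Log2 CPM used a prior count of 2, and log2 ratios of counts had 0.5 added to each count. SEs and 95% intervals of fold changes were derived from the quasi-likelihood F statistic. Same-tissue libraries differed by more than sampling noise (lowest chi-square per degree of freedom 13.1 over 20 pairs), so all 10 were kept.

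The 6 genes, the lists and the tests were chosen with earlier results of these data known. The rule for named genes took these 6, and by identifier the 2 genes most like COL1A2 and the 2 most like COL2A1. Further lists by symbol (other collagens, proteoglycans, procollagen enzymes, collagen receptors, regulators and cell type markers) were not used, because 0 of the 37063 entries of the RefSeq gene table hold an Ensembl identifier. Gene or protein sequences were not used here. Alternatives were other scaling factors, no filter, DESeq2 1.42.0, limma 3.58.1 with voom, the replicate number as a block, scaling without the 20 most abundant genes, and leaving out each library.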

Additional observations from a re-analysis of the deposited data

Results flagged for a closer look

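A single library stood far from the other 4 of its tissue in 2 of the 12 groups of values examined. The measure was its gap to the next library over the range of the 5, in CPM, with Dixon's limit of 0.71. The gaps were 0.878 and 0.828 of the range. That limit assumes normally distributed values, which counts near 0 and skewed CPM are not, so no chance rate is given. COL1A2 was at 1.241 CPM (14 counts) in cartilage replicate 1, and the next cartilage library was at 0.151 CPM. That library had 0 counts of COL1A1, whereas in labrum COL1A1 had 0.759 to 1.12 times the counts of COL1A2. Among the cartilage libraries it was also the highest for ENSBTAG00000000745, at 3.54 CPM against 0.454 to 1.56 CPM in the others, although that gene was chosen on the same libraries for its likeness to COL1A2. The next gene by likeness, ENSBTAG00000004207, had 0 counts in that library and in the other 4 cartilage libraries. Its labrum mean was 335 CPM, against 8068 CPM for COL1A2, and 0 counts in cartilage replicate 1 allows up to 0.266 CPM. A share as small as that of COL1A2 would lie below that limit. The source of the 14 COL1A2 counts was not tested.

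COL2A1 was at 416.5 CPM in labrum replicate 5, and the next labrum library was at 134.6 CPM. The value is 1.22% of the cartilage mean of COL2A1, against 0.223% to 0.395% in the other labrum libraries. In the same library ENSBTAG00000004948 and ENSBTAG00000025502, the genes most like COL2A1, had 0 counts. That allows up to 0.251 CPM of each, which is 0.646% and 0.516% of their cartilage means, for counting error only. Both genes were chosen on the same libraries for their likeness to COL2A1. Their cartilage means, 38.89 ± 30.49 and 48.75 ± 35.57 CPM (SD), varied widely, so no conclusion is drawn from the 0 counts. This labrum library was the highest for 3 of the 6 genes, COL1A1, COL1A2 and COL2A1, as it was for 17.9% of all tested genes.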

How the results depend on the processing

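The calls and directions of COL1A1, COL1A2, COL3A1 and COL2A1 held under all 8 other settings and with each library left out. For SPARC the log2 fold change ran from -1.12 to -0.60 with 1 library left out (adjusted p 0.0414 to 0.274). It passed the threshold without cartilage replicate 3. For DCN it ran from -0.04 to 0.31 with 1 library left out, turning to -0.023 without cartilage replicate 4 and -0.042 without labrum replicate 1. The pooled ratio ran from 80000 to 346000 for COL1A1 and from 22700 to 228000 for COL1A2, because the few cartilage counts lay mostly in 1 library each. The computed log2 difference of the COL1A1 to COL1A2 ratio, 0.58 with all libraries, ran from -0.47 to 1.54, and is not read as a change because it rests on 0 to 14 counts in each cartilage library.

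A replicate block gave 3842 higher and 3766 lower genes, and no call on the 6 genes changed. The SE of the log2 fold change fell with the block from 0.818 to 0.356 for COL2A1. It fell less for COL1A1, COL1A2, COL3A1 and SPARC, and rose from 0.258 to 0.272 for DCN. The intervals given above are those without the block. The exact paired test of the ratios cannot go under p = 0.0625 with 5 pairs, so by construction none passes with the replicate block. The computed log2 differences there were -14.44 for COL3A1, -23.23 for COL2A1 and -16.44 for SPARC relative to COL1A2. These rest on few cartilage counts with 0.5 added and are no measure of size. They were 7.61 for DCN to COL2A1, 1.99 for COL3A1 to SPARC and -6.79 for COL2A1 to SPARC. Same-numbered libraries deviated together with correlations of 0.091 to 0.253 over the tested genes, and 8 of 10 correlated best with their own number. The labels do not say that numbers mark animals, so this hint comes from the data alone.

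The ratios of COL3A1 and COL2A1 to SPARC, and the removal of libraries from the coefficients of variation and the ranks of likeness, were added after seeing the data. Fixed gene lists were not run, because no table paired identifiers with symbols. Depth sets the floor for the type I chains in cartilage.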
